A study of Rattus norvegicus with 140 samples.

Results

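The RT1 complex is the major histocompatibility complex of the rat, and 50 transcript IDs (48 genes) of RT1 and antigen presentation genes were followed through heat stress and recovery, out of 29214 transcript IDs measured. The members were every ID annotated with a single symbol starting with RT1-, together with Cd74, B2m, Ciita, Nlrc5, Tap1, Tap2, Tapbp, Psmb8, Psmb9, Psmb10, Psme1, Psme2 and Erap1. By function, 28 IDs were class I (10 RT1-CE IDs, 17 class Ib IDs and B2m), 10 were class II, 10 supplied or loaded peptides and 2 were regulators. A further 6 RT1 IDs that carry several symbols, the RT1-A genes among them, were left out.

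Class I molecules sit on nearly every nucleated cell and show peptides from the cytosol to CD8 T cells. Those peptides are cut by the immunoproteasome, moved by the TAP transporter and bound with the help of tapasin, and the light chain B2m completes the complex. Class II molecules show peptides from endocytosed protein to CD4 T cells, mostly on dendritic cells, macrophages and B cells, and need the invariant chain Cd74 and the exchange factor DM to be loaded. CIITA drives transcription of class II genes and NLRC5 that of class I genes, and interferon-gamma raises both sets.

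Male Fischer 344 rats, 2 to 3 months old and implanted with telemetry transmitters, gave the 4 organs (heart, liver, kidney, lung) that were hybridised to whole-transcript rat arrays from Affymetrix. Heated rats were kept conscious in a 37 °C incubator to a core temperature of 41.8 °C (TcMax) and were killed then, or after 24 h or 48 h of recovery at ambient temperature. Time-matched control rats were not heated, and the labels and the study's methods differ on whether they entered the incubator. Each organ had 5 or 6 heated and 5 or 6 control rats per time, 140 arrays in all, and 1 array is 1 organ of 1 rat. The array labelled as a 48 h heated heart, replicate 4, was left out because its 8 heart markers summed to 669 and its 7 lung markers to 75239, against 19349 to 47610 and 34.4 to 348 in the other 34 heart arrays. In every other array the markers of the labelled organ had the highest sum of the 4 organs, although liver markers reached 9606 in a heart array, 13344 in a kidney array and 6471 in a lung array.

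A difference is the mean of log2(intensity + 16) in heated rats minus that in control rats, and values of single rats are linear intensities. The 14607 IDs with the larger SD in an organ (50%) were tested with limma, and a gene is said to have risen or fallen where its Benjamini-Hochberg adjusted p over those IDs was under 0.05, with no minimum fold. That filter let through 25 members in lung, 33 in kidney, 22 in liver and 34 in heart, so a member could pass it through its change in heated rats, and counts over tested members are not counts over every member. Over the 12 comparisons 32 calls were made, 30 of them at TcMax in liver, kidney and lung. A change of at least 2-fold accompanied 1 of these 32 calls, that of RT1-Db1 in heart at 24 h. Over every ID such calls made up 1.06% of 175284 tests, a share of tests and not of calls. At TcMax 0 of 17 member calls in lung were at least 2-fold, against 350 of 3206 calls over every ID. The counts were 0 of 7 against 596 of 4517 in liver and 0 of 6 against 267 of 1778 in kidney. In heart they were 0 of 1 against 295 of 1066.

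**Figure D1:**
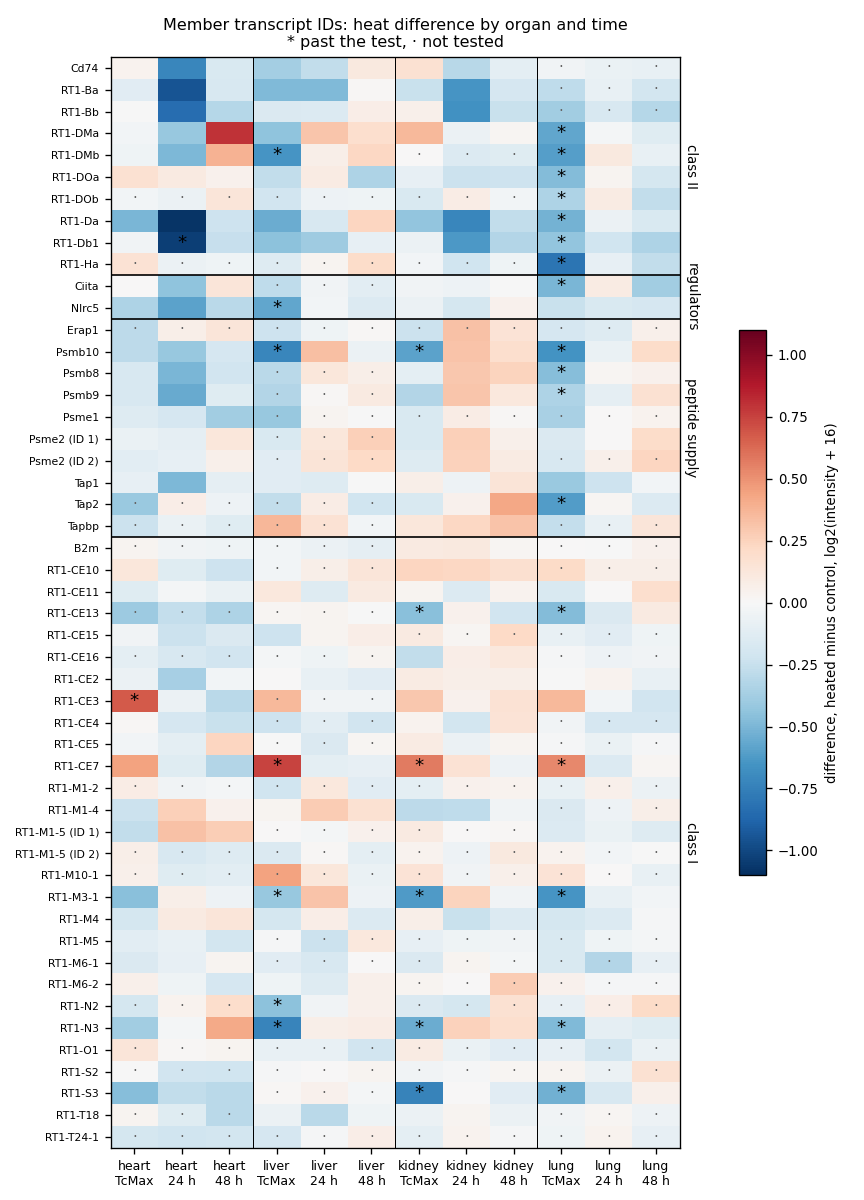
Difference of each of the 50 member IDs (rows, by function) in the 12 comparisons (columns), heated minus control on the log2(intensity + 16) scale, with red for higher and blue for lower in heated rats. Asterisks mark IDs past the test and dots IDs that the SD filter left untested; most asterisks stand in the 3 TcMax columns of liver, kidney and lung.

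In lung at TcMax most class II genes, several peptide supply genes and Ciita were lower in heated rats. Of the 25 tested members, 16 fell, against 12.0% of every tested ID, and 1 rose, against 9.97%. These 17 calls became 6 with log2(intensity + 1), where the SD filter on that scale left 7 of the 17 IDs tested, and 12 to 18 with 1 array left out, fewest without heated lung 3. Class II supplied 7 of the falls, with 7 of its 10 IDs tested, peptide supply 4 of 6 tested, class I 4 of 10 tested and the regulators 1 of 2 tested. When every ID of the table was tested without the SD filter, 18 of the 50 members fell, against 9.06% of all IDs. The median difference was −0.46 over the 10 class II IDs, each of which was below 0, and −0.06 over the 28 class I IDs, beside −0.02 over every tested ID.

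RT1-Da, the alpha chain of the rat equivalent of HLA-DR, had 796, 948 and 1370 (lowest, median, highest) in heated lungs and 1273, 1440 and 1526 in control lungs. It fell by 0.52 (SE 0.12, adjusted p = 0.00078 by limma), and 5 of the 6 heated lungs lay under every control lung. Its partner RT1-Db1, the beta chain, had 259, 329 and 450 in heated lungs against 413, 449 and 516 in control lungs, a fall of 0.43 (SE 0.12, adjusted p = 0.0066) with groups that overlapped through 1 heated lung. RT1-Ha, an alpha chain of the DP-like locus, was dim at 4.50, 9.15 and 17.4 in heated lungs and 18.1, 29.0 and 36.8 in control lungs. It had the largest difference of any member in lung, −0.80 (SE 0.14, adjusted p = 2.4e-05), and its groups did not overlap, but at such intensities the added 16 sets much of the scale.

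DM releases the invariant chain fragment from class II molecules so that peptide can bind. RT1-DMb had 315, 370 and 738 in heated lungs and 509, 612 and 868 in control lungs, a fall of 0.60 (SE 0.15, adjusted p = 0.0026). RT1-DMa had 311, 350 and 691 in heated lungs and 483, 566 and 742 in control lungs, a fall of 0.57 (SE 0.17, adjusted p = 0.011). The highest heated value of both DM genes came from 1 rat, heated lung 6, and the other 5 heated lungs lay under every control lung for both. Without that lung the class II median was −0.52, the lowest value when any of the 12 arrays was left out. RT1-DOa and RT1-DOb, whose products restrain DM, fell by 0.48 (adjusted p = 0.0042) and 0.34 (adjusted p = 0.037), and the second lost its call without any one of heated lungs 2, 3 and 5 or control lungs 1, 3 and 5, with adjusted p of 0.053 to 0.136. The SD filter left Cd74, RT1-Ba and RT1-Bb untested in lung. Cd74 had 3646, 4497 and 4924 in heated lungs and 4190, 4515 and 4794 in control lungs, a difference of −0.04 with groups that overlapped, and RT1-Ba and RT1-Bb, the chains of the DQ-like molecule, had differences of −0.28 and −0.38.

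**Figure D2:**
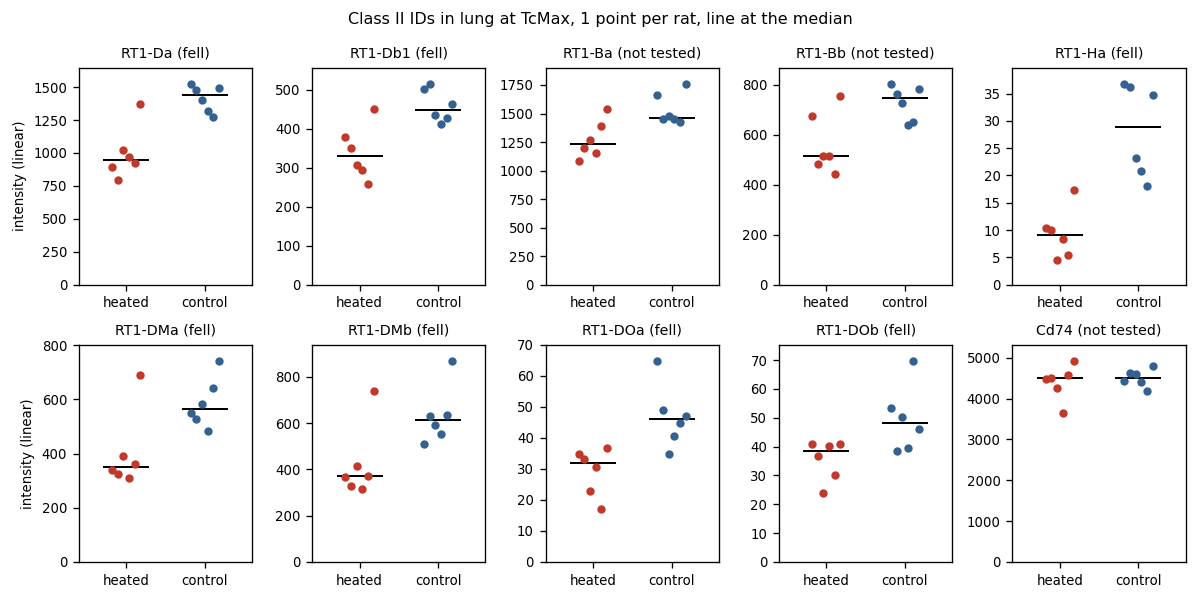
Linear intensity of the 10 class II IDs in lung at TcMax (y axis, from 0), with heated rats on the left and control rats on the right, 1 point per rat and a line at the median of 6. Heated medians lie under control medians for the genes that fell, 1 heated rat lies among the control rats in the RT1-Da, RT1-DMa and RT1-DMb panels, and Cd74 shows no such gap.

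Promoters of 41 of the 48 member genes were in the RefSeq table used here (assembly GRCr8, of another strain than these rats), and 4 are shown because their genes fell together in lung. Each run below is the 150 bases before the annotated start, read 5′ to 3′ towards it, with CCAAT or its reverse complement ATTGG in capitals (letters of the Y box that NF-Y binds) and AGCAAC on either strand in capitals (letters of the X box that the RFX complex binds). They are chr20:4515265-4515414 (plus strand), chr20:4560163-4560312 (minus strand), chr20:4712336-4712485 (minus strand) and chr20:4772142-4772291 (minus strand).
RT1-Da: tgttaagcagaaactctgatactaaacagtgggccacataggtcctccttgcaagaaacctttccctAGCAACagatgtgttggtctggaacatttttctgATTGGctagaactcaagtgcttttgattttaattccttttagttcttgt
RT1-Db1: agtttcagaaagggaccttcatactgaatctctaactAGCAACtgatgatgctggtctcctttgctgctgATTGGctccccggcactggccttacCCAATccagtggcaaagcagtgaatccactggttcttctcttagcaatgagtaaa
RT1-DMa: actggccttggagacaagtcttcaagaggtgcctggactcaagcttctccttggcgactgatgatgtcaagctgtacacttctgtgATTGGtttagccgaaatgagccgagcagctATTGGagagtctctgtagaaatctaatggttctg
RT1-Ha: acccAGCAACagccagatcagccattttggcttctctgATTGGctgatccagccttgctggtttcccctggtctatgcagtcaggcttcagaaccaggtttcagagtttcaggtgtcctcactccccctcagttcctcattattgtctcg

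Within 250 bases before to 50 after the start, CCAAT was found on either strand in 9 of 9 class II promoters in the table. It was also in 17 of 24 class I and 2 of 8 peptide supply promoters, and in 37.5% of all 33469 promoters. AGCAAC was found in 6 of the 9 class II promoters, all but RT1-Ba, RT1-Bb and RT1-DMa. It was also in 4 of 24 class I and 1 of 8 peptide supply promoters, and in 14.7% of all promoters. In RT1-Da, RT1-Db1, RT1-Ha, RT1-DOa and RT1-DOb, AGCAAC was followed by ATTGG with the second starting 31 to 34 bases after the first, a pair found in 11 of all promoters (0.0329%). That spacing was set from these 5 promoters after they were read. The RFX subunit gene Rfx5 fell in 3 organs at TcMax, by 0.57 in lung (adjusted p = 0.00011), 0.57 in kidney (adjusted p = 0.0035) and 0.87 in liver (adjusted p = 6.9e-06), and was not tested in heart. Nfya, which encodes an NF-Y subunit, rose in all 4, by 0.54 in lung, 0.34 in kidney, 0.57 in liver and 0.72 in heart. A run of matching letters does not show that a factor was bound in these organs.

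CIITA itself was among the genes that fell in lung. Ciita had 17.3, 25.0 and 38.1 in heated lungs and 33.1, 43.8 and 48.1 in control lungs, a difference of −0.51 (SE 0.15, adjusted p = 0.011). Nlrc5 had 39.9, 70.8 and 90.9 in heated lungs and 56.8, 78.5 and 121 in control lungs, a difference of −0.24 that did not pass the test (adjusted p = 0.37).

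Peptide supply genes fell in lung as well. Psmb10, a catalytic subunit of the immunoproteasome, had 167, 212 and 250 in heated lungs and 304, 334 and 368 in control lungs, and fell by 0.66 (SE 0.10, adjusted p = 3.1e-06) with no overlap. Tap2, which pairs with Tap1 in the peptide transporter, had 99.5, 107 and 136 in heated lungs and 153, 183 and 211 in control lungs, and fell by 0.61 (SE 0.11, adjusted p = 6.3e-05), again with no overlap. Psmb8 and Psmb9, the other immunoproteasome subunits, fell by 0.47 (adjusted p = 0.0030) and 0.34 (adjusted p = 0.030), and the second lost its call without any one of heated lungs 1, 3 and 6 or control lungs 1, 3 and 5 (adjusted p 0.051 to 0.070). Tap1 had a difference of −0.41 (adjusted p = 0.070), and passed the test without heated lung 1 (adjusted p = 0.017) or control lung 6 (adjusted p = 0.035). Psme1, a subunit of the PA28 activator, was not tested, yet its 6 heated lungs at 855 to 942 lay under its 6 control lungs at 1101 to 1214. Of the constitutive proteasome list, 1 ID of 16 was tested, and it fell.

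Psmb10 and Tap2 are shown next for a different motif, GAAA followed after any 2 bases by GAAA, letters of the element through which interferon signalling acts, in capitals. The runs are again the 150 bases before the start, at chr19:50743293-50743442 (minus strand) and chr20:4652297-4652446 (minus strand).
Psmb10: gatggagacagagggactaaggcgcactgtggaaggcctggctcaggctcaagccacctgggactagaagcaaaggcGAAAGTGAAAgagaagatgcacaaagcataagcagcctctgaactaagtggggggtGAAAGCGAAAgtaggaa
Tap2: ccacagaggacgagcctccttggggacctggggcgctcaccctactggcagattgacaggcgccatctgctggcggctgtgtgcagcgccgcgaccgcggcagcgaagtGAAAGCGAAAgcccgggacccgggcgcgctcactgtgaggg

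GAAA, any 2 bases, GAAA stood in 6 of the 8 peptide supply promoters in the table, in 4 of 24 class I promoters (B2m, RT1-N3, RT1-S2 and RT1-S3) and in 0 of the 9 class II promoters, against 3.92% of all promoters, searched on both strands. Of the interferon-gamma targets outside the members, 6 of 11 tested IDs fell in lung at TcMax, against 12.0% of every tested ID, and none rose. The part of interferon signalling was not tested. Gbp5 and Irgm, guanylate-binding and immunity-related GTPases, had the largest falls with 1.03 (adjusted p = 4.2e-06) and 1.02 (adjusted p = 1.2e-08). The summed intensity of that list was 2554 to 3054 in heated lungs and 3808 to 4820 in control lungs, with no overlap. None of the 41 promoters held GAA, TTC and GAA each set off by any 2 bases, letters of the heat shock element. Those letters stood in 0.798% of all promoters, a share so low that finding none among 41 says little.

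Some T and NK cell markers also fell in lung. Of 16 tested T and NK cell marker IDs 9 fell, against 12.0% of every tested ID. Their sum was 1024 to 1559 in heated lungs and 1462 to 2680 in control lungs. Macrophage markers were mixed, with 4 falls and 1 rise among 10 tested and sums of 2339 to 3823 in heated lungs against 2583 to 4043 in control lungs. Dendritic cell markers had 2 falls and 1 rise among 8 tested, with sums of 778 to 1103 in heated lungs and 725 to 904 in control lungs. None of 6 tested B cell marker IDs passed the test, and their sums were 407 to 629 in heated lungs and 526 to 965 in control lungs. Liver markers summed to 6471 and 2979 in heated lungs 1 and 2, against 325 to 592 in the other heated lungs and 419 to 702 in control lungs. The part of these cells in the class II and peptide supply differences was not tested, and in whole organs fewer cells of a type and less RNA per cell cannot be told apart.

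Class I genes went both ways at TcMax, and 3 of the 28 IDs had a positive difference in every organ. These were RT1-CE7 (0.45 to 0.75), RT1-CE3 (0.30 to 0.67) and RT1-M10-1 (0.06 to 0.44), the last tested in no organ. More class I IDs had a negative difference in every organ, namely RT1-M3-1, RT1-N3, RT1-N2, RT1-M6-1, RT1-M5, RT1-T24-1 and RT1-CE16. Of these, RT1-M3-1, RT1-N3 and RT1-N2 fell in at least 1 organ. RT1-CE7, a class I gene of the RT1-C/E region, had 194, 204 and 253 in heated lungs and 131, 141 and 159 in control lungs, and rose by 0.53 (SE 0.094, adjusted p = 4.4e-05). In liver it had 79.7, 89.7 and 112 in heated rats and 38.6, 50.3 and 55.0 in control rats, and rose by 0.75 (SE 0.12, adjusted p = 5.5e-06). Heated and control rats did not overlap in either organ. In kidney it had 69.5, 94.1 and 107 in heated rats and 31.3, 59.5 and 79.6 in control rats, and rose by 0.57 (SE 0.15, adjusted p = 0.0084) with an overlap. In heart its difference was 0.45 (adjusted p = 0.20), and, with arrays left out one at a time, it passed the test only without heated heart 5 (adjusted p = 0.037). The 10 RT1-CE IDs ranged from −0.48 to 0.53 in lung and from −0.46 to 0.57 in kidney, where RT1-CE13 had the lowest difference and fell in both (adjusted p = 0.0011 in lung, 0.028 in kidney). RT1-CE3 rose in heart alone, as given with that organ, and had a difference of 0.36 in lung that passed the test without heated lung 5 (adjusted p = 0.015) or 6 (0.028). RT1 class I genes are near copies of one another and the probes were designed on another strain's sequence, so signal may be shared or lost between them.

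RT1-M3-1, a class Ib gene whose mouse counterpart shows peptides that begin with formyl-methionine, had a negative difference in every organ. It had 102, 128 and 142 in heated lungs and 185, 210 and 229 in control lungs, and fell by 0.65 (SE 0.10, adjusted p = 5.1e-06) with no overlap. It fell by 0.63 in kidney (adjusted p = 0.010) and by 0.42 in liver (adjusted p = 0.027), and the liver call was lost without heated liver 2 (adjusted p = 0.11) or control liver 6 (adjusted p = 0.066). In heart the 5 heated rats had 38.6, 50.9, 31.9, 47.5 and 98.1, against 65.6, 76.0 and 86.8 in control rats. That difference of −0.46 did not pass the test (adjusted p = 0.061), but did without the heated heart at 98.1 (−0.65, adjusted p = 0.00058).

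RT1-S3 and RT1-N3, also class Ib, fell in lung and kidney. RT1-S3 had 320, 350 and 379 in heated lungs and 443, 495 and 613 in control lungs, and fell by 0.53 (SE 0.097, adjusted p = 6.8e-05) without overlap. In kidney it had 99.9, 117 and 155 in heated rats and 147, 224 and 314 in control rats, and fell by 0.74 (SE 0.15, adjusted p = 0.00037), the largest fall of a member there, with an overlap. In liver it was bright and untested, with 774, 921 and 991 in heated rats and 674, 919 and 1023 in control rats, and the groups overlapped. RT1-N3 fell by 0.49 in lung (adjusted p = 0.011), 0.55 in kidney (adjusted p = 0.016) and 0.73 in liver (adjusted p = 5.4e-05), and its liver groups did not overlap. The lung call was lost without heated lung 5 (adjusted p = 0.055) and the kidney call without heated kidney 3 (0.060) or 4 (0.051). B2m, the light chain that all class I molecules share, differed by −0.03 to 0.10 over the 4 organs, and was tested in kidney alone (adjusted p = 0.76).

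**Figure D3:**
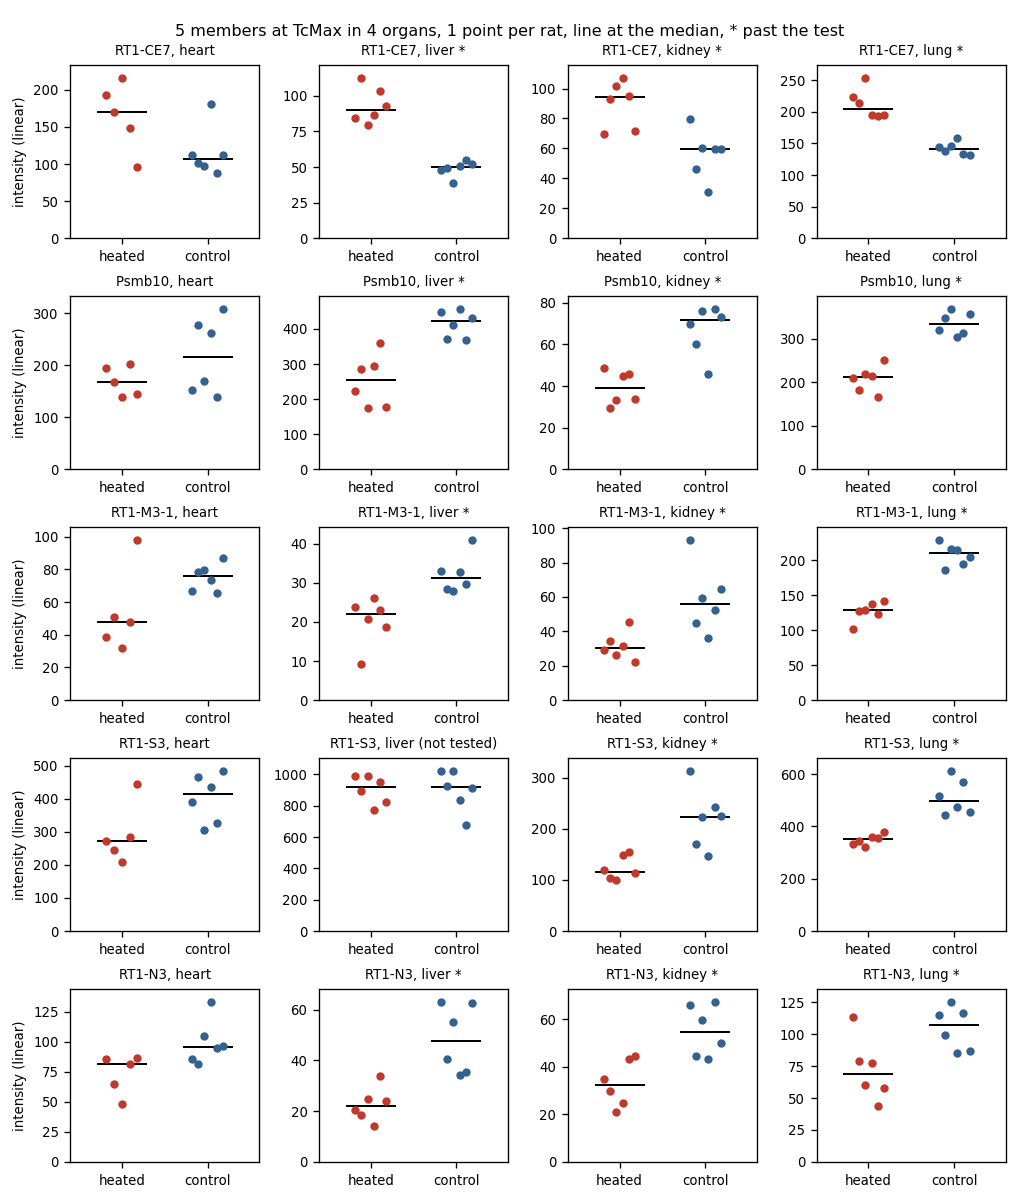
Linear intensity of RT1-CE7, Psmb10, RT1-M3-1, RT1-S3 and RT1-N3 (rows) at TcMax in 4 organs (columns), with y axes from 0, heated rats left and control rats right, 1 point per rat and a line at the median. RT1-CE7 is higher and the others are lower in heated lungs and kidneys, and RT1-S3 shows no gap in liver.

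In liver at TcMax 6 of 22 tested members fell, against 19.4% of every tested ID, and 1 rose, against 11.5%. Those falls were 27.3% of the members tested. When every ID of the table was tested without the SD filter, 7 of the 50 members fell, against 12.4% of all IDs. In that fit 4 members rose, against 7.72% of all IDs. Psmb10 had 175, 255 and 360 in heated livers and 369, 422 and 457 in control livers, and fell by 0.72 (SE 0.15, adjusted p = 0.00032) with no overlap. Nlrc5, the class I regulator, had 52.2, 78.8 and 87.4 in heated livers and 97.7, 119 and 146 in control livers, and fell by 0.57 (SE 0.14, adjusted p = 0.0011), also with no overlap. RT1-DMb was the class II gene that fell, by 0.65 (adjusted p = 0.0025), and RT1-N2 fell by 0.45 (adjusted p = 0.0054). Tapbp, which encodes tapasin, was untested and had 176 to 257 in heated livers and 135 to 175 in control livers, which did not overlap. Erap1, the peptidase that trims peptides in the endoplasmic reticulum, was not tested in any organ and had differences of −0.29 to −0.18 over the 4.

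The 10 class II IDs in liver had a median of −0.40, with each below 0, beside −0.11 over every tested ID. RT1-Da (−0.55, adjusted p = 0.11), RT1-Ba (−0.49, adjusted p = 0.13) and Cd74 (−0.37, adjusted p = 0.22) did not pass the test. The rat tags in the sample descriptions begin with 09, 11 or 12, and within those prefixes the class II median in liver was 0.18 for prefix 09, −0.36 for 11 and −1.09 for 12, so its sign depended on the rats compared. In lung the same split gave −0.50, −0.42 and −0.41. Of the interferon-gamma targets outside the members, 6 of 10 tested IDs fell in liver, against 19.4% of every tested ID. T and NK cell markers fell for 5 of 12 tested, against the same 19.4%. Sums of these markers were 574 to 886 in heated livers and 885 to 1424 in control livers, and their part was not tested.

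In kidney at TcMax 5 of 33 tested members fell, against 5.93% of every tested ID, and 1 rose, against 6.24%. The falls were RT1-S3, RT1-M3-1, Psmb10, RT1-N3 and RT1-CE13, of which the last was lost without any one of heated kidneys 2 and 3 or control kidneys 1, 3, 5 and 6 (adjusted p 0.057 to 0.125). Psmb10 had 29.6, 39.3 and 48.7 in heated kidneys and 45.9, 71.6 and 77.1 in control kidneys, and fell by 0.59 (SE 0.17, adjusted p = 0.015). The class II median was −0.05 and the class I median 0.03. None of 7 tested class II IDs passed the test by limma, and 1 had an unadjusted p under 0.05. That ID was RT1-DMa, with 228, 317 and 326 in heated kidneys and 175, 225 and 306 in control kidneys, a difference of 0.35 (adjusted p = 0.12) that passed without control kidney 6 (0.43, adjusted p = 0.048).

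RT1-DMa was also the member whose response differed between organs. Taken within rats, as the difference between their organs, its heat difference in kidney exceeded that in lung by 0.92 (SE 0.19, adjusted p = 0.0034). That contrast was called for 1 of 21 tested members and for 2.66% of 10285 IDs tested in both organs. Its difference in liver lay below that in kidney by 0.79 (SE 0.23, adjusted p = 0.029). This contrast was called for 1 of 18 tested members, against 6.82% of 9447 IDs. A count of 1 is near what those shares give over so few members. In the other 4 pairs of organs RT1-DMa did not pass at TcMax, with adjusted p of 0.50 to 0.84.

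In heart at TcMax 1 of 34 tested members rose, against 3.94% of every tested ID, and none fell, against 3.36%. At unadjusted p under 0.05 by limma, 2 members were higher, against 6.87% of every tested ID, and 3 were lower, against 8.84%. RT1-CE3, another class I gene of the C/E region, had 94.7, 130, 121, 100 and 65.8 in the 5 heated hearts and 26.3, 57.8 and 90.0 in control hearts, and rose by 0.67 (SE 0.19, adjusted p = 0.023). The call was lost without heated heart 2 (adjusted p = 0.097), heated heart 3 (0.082) or control heart 3 (0.097). Without heated heart 5 the count was 4, with RT1-CE7, RT1-M3-1 and RT1-S3 added, and RT1-S3 also passed without control heart 3 (adjusted p = 0.038) or 5 (0.0499). None of 8 tested class II IDs passed the test or had an unadjusted p under 0.05, and their median difference over 10 IDs was −0.03, with a range of −0.09 to 0.10 when 1 array was left out.

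At 24 h the lower class II levels were in heart and kidney. RT1-Db1 had 88.2, 139 and 246 in heated hearts and 233, 307 and 379 in control hearts, a fall of 1.04 (SE 0.21, adjusted p = 0.029), and it was the single member of 34 tested to fall, against 0.0479% of every tested ID. That call was lost without any one of heated hearts 1, 2, 4 and 6 or control hearts 1, 2, 3, 5 and 6 (adjusted p 0.058 to 0.163), and with the tag prefix of the rats as a block (−0.96, adjusted p = 0.13). A further 4 class II genes of heart lay lower without passing the test, at −1.08 for RT1-Da (adjusted p = 0.16), −0.95 for RT1-Ba (0.083), −0.84 for RT1-Bb (0.23) and −0.72 for Cd74 (0.30). Without heated heart 5, RT1-Da, RT1-Ba and RT1-Bb also passed (adjusted p = 0.015, 0.015 and 0.018), for 4 calls. The other 5 class II IDs had differences of −0.50 for RT1-DMb, −0.42 for RT1-DMa, −0.06 for both RT1-DOb and RT1-Ha and 0.10 for RT1-DOa.

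Members of other classes also had lower means in heart at 24 h. At unadjusted p under 0.05 by limma, 13 of the 34 tested members were lower, against 1.94% of every tested ID, and 1 was higher, against 2.96%. The lower ones were 6 of 8 tested class II IDs, 4 of 7 peptide supply IDs, both regulators and 1 of 17 class I IDs. Among them Psmb9 had a difference of −0.55, Psmb8 of −0.51, Tap1 of −0.49 and Psmb10 of −0.42, none of which passed after adjustment. Nlrc5 (−0.59) and Ciita (−0.44) did not pass after adjustment either. The class I ID that was lower was RT1-CE2 (−0.36), and the member that was higher was 1 of the 2 RT1-M1-5 IDs (0.33).

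The class II median in heart at 24 h was −0.61, beside −0.10 over the class I IDs and 0.02 over every tested ID. It was −0.49, −0.76 and −0.50 within the tag prefixes 09, 11 and 12. Prefix 11 set a lone heated rat against a lone control rat and prefix 12 had a lone control rat, so these medians rest on few rats. In kidney at 24 h none of 33 tested members passed by limma, against 0.00685% of every tested ID. At unadjusted p under 0.05 no member was higher, against 2.09% of every tested ID, and 4 were lower, against 4.76%. These were RT1-Da (−0.72), RT1-Bb (−0.67), RT1-Ba (−0.65) and RT1-Db1 (−0.63), with a class II median of −0.27. In heart T and NK cell marker sums were 584 to 2111 in heated rats and 1401 to 2557 in control rats, and in kidney 276 to 604 in heated rats and 482 to 625 in control rats. Dendritic cell marker sums were 587 to 851 in heated hearts and 712 to 896 in control hearts (0 of 7 tested past the test, 3 at unadjusted p under 0.05), and 236 to 363 in heated kidneys and 277 to 370 in control kidneys (0 of 9, none at unadjusted p under 0.05). Macrophage marker sums were 2620 to 4041 in heated hearts and 1947 to 3301 in control hearts, and 759 to 1112 in heated kidneys and 757 to 1049 in control kidneys (0 of 11 and 2 at unadjusted p under 0.05 in each organ). B cell marker sums were 232 to 361 in heated hearts and 233 to 320 in control hearts, and 231 to 332 in heated kidneys and 252 to 374 in control kidneys. None of the tested T and NK or B cell marker IDs passed the test at 24 h in either organ, and the part of these cells in the class II levels was not tested.

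The lowest class II levels of heart and kidney at 24 h came from the same rats. Averaged over the 10 class II IDs and set against the control mean of the organ, 2 heated rats lay at −0.98 and −0.92 in heart and at −0.95 and −0.85 in kidney. The other 4 heated rats lay between −0.59 and −0.07 in heart and between −0.40 and 0.26 in kidney. In lung the same 2 rats were at 0.07 and 0.08, within the control range of −0.06 to 0.09. In liver they were at −0.04 and −0.52, against −0.30 to 0.45 in control rats. The same 2 rats had T and NK cell marker levels of −0.95 and −1.16 in heart and −0.45 and −0.33 in kidney, and class I levels of −0.15 and −0.11 in heart. Their T and NK cell marker levels were also the lowest of the heated livers, at −0.60 and −0.48, against −0.31 to −0.08 in the other heated rats and −0.09 to 0.16 in control rats. In lung, where their class II levels were not low, these markers were at −0.26 and −0.60, against −0.28 to 0.07 in the other heated rats and −0.34 to 0.21 in control rats. Their dendritic cell marker sums were the lowest of the heated hearts (603 and 587, against 682 to 851 in the other 4), and in kidney were 236 and 315, against 284 to 363. Organ markers of the same 2 rats also stood apart. Their heart markers summed to 39846 and 36257 in heart, against 27136 to 31679 in the other heated hearts and 24629 to 35294 in control hearts. Their kidney markers summed to 14202 and 14691 in kidney, against 16192 to 20422 in the other heated kidneys and 16499 to 19512 in control kidneys. These rats were singled out after their values were seen, and no test was made on them.

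**Figure D4:**
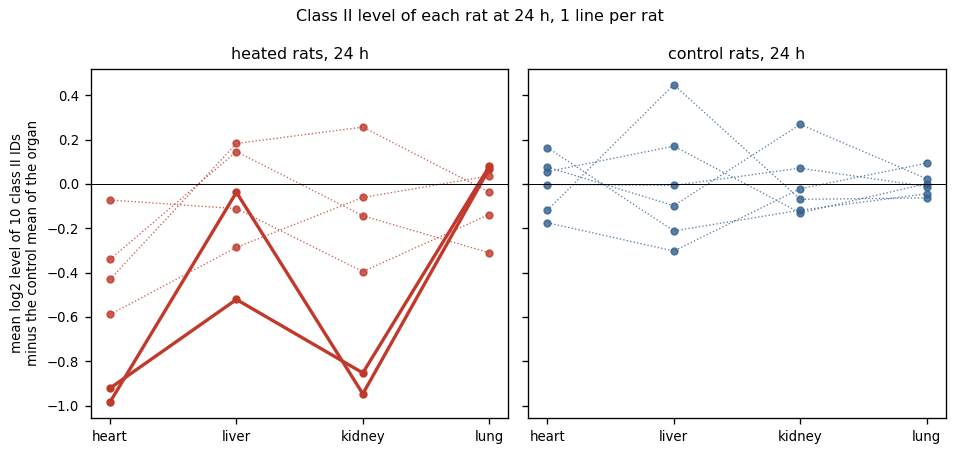
Mean log2 level of the 10 class II IDs in each rat at 24 h, minus the control mean of the organ (y axis), in 4 organs (x axis), with heated rats in the left panel and control rats in the right panel and 1 line per rat. The thick lines are the 2 heated rats lowest in heart, which are also lowest in kidney and lie near 0 in lung.

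In liver at 24 h none of 22 tested members passed by limma, against 1.07% of every tested ID, and 4 had an unadjusted p under 0.05. In lung at 24 h none of 25 passed, against 0% of every tested ID, and none had an unadjusted p under 0.05. At 48 h no member passed by limma in heart (34 tested, 4 at unadjusted p under 0.05, 5.63% of every tested ID called), liver (22 tested, 1, 0.0342%), kidney (33 tested, 1, 0.0411%) or lung (25 tested, 3, 0%). In lung 7 of the 10 class II IDs lay below 0 at 24 h, with a median of −0.07, and all 10 at 48 h, with a median of −0.20 beside −0.04 over every tested ID.

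RT1-DMa in heart at 48 h split the heated rats. Its values were 230, 251, 975, 967 and 269 in the 5 heated hearts and 185, 234 and 313 (lowest, median, highest) in control hearts. The difference of 0.80 did not pass the test (adjusted p = 0.069), and did so without any one of the 3 lower heated hearts (adjusted p 0.010 to 0.027). RT1-N3 in the same comparison passed without heated heart 1 (0.51, adjusted p = 0.039). The 2 hearts with the high values were the 2 whose macrophage markers summed to 9792 and 9289, against 2710 to 4204 in the other heated hearts and 2287 to 3707 in control hearts. The dendritic cell marker sums of the same 2 hearts were 1421 and 1083, against 618 to 729 in other heated and 681 to 888 in control hearts. Their heart marker sums were 19349 and 24712, against 32603 to 33259 in other heated and 31238 to 37804 in control hearts. Of 11 tested macrophage marker IDs 5 rose, and the part of these cells in the RT1-DMa values was not tested. The proteases Lgmn (0.84) and Ctsb (0.64) and the thiol reductase Ifi30 (0.91), which prepare antigen for class II, rose in the same comparison. Calr (0.57), a class I chaperone, rose too. They are examples from a fixed list of class I and II machinery genes. In this comparison 4.01% of every tested ID rose, and none of 8 tested class II IDs passed the test.

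**Figure D5:**
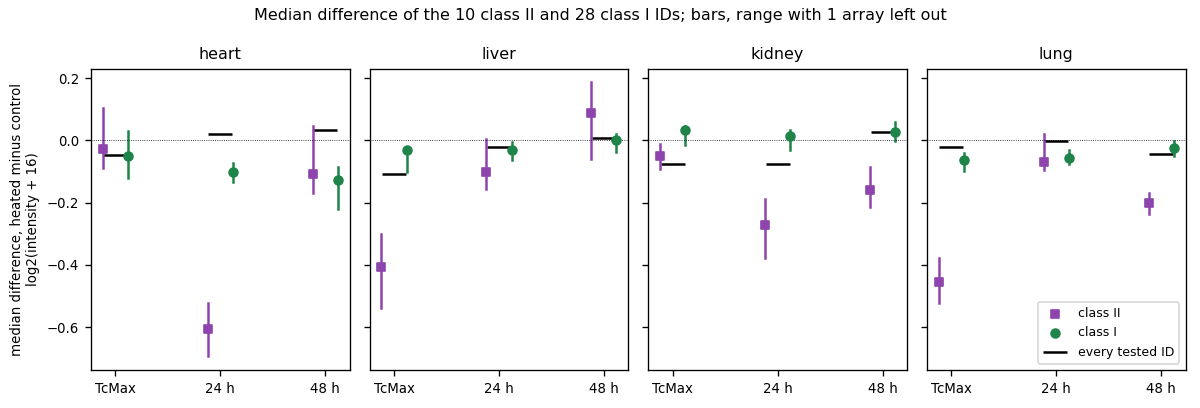
Median difference of the 10 class II IDs (squares) and the 28 class I IDs (circles) at TcMax, 24 h and 48 h (x axis) in each organ, heated minus control on the log2(intensity + 16) scale, with bars for the range when 1 array is left out and black dashes for the median of every tested ID. Class II lies lowest in lung at TcMax (−0.46), in liver at TcMax (−0.40) and in heart at 24 h (−0.61), while the class I medians stay between −0.13 and 0.03.

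Whether responses at TcMax differed from those during recovery was tested as the difference between the 2 heat differences, each with its own control rats. In lung 6 of 25 tested members differed between 24 h and TcMax, against 11.7% of every tested ID, and 7 between 48 h and TcMax, against 12.3%. Psmb10 moved back by 0.59 by 24 h (adjusted p = 0.0034) and 0.87 by 48 h (adjusted p = 5.0e-05), and RT1-CE7 by −0.68 (adjusted p = 0.00041) and −0.50 (adjusted p = 0.011). Among class II genes RT1-Ha (0.71, adjusted p = 0.011) and RT1-DMb (0.71, adjusted p = 0.023) differed at 24 h, and none did at 48 h.

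In liver 6 of 22 tested members differed between 24 h and TcMax, against 19.2% of every tested ID, and 4 between 48 h and TcMax, against 17.7%. In kidney the counts were 4 of 33 at 24 h, against 6.38%, and 2 at 48 h, against 5.76%. In heart 0 of 34 differed between 24 h and TcMax, against 3.30%, with 8 at unadjusted p under 0.05 by limma, and 2 between 48 h and TcMax, against 7.00%. The lower class II levels of heart at 24 h were not shown to differ from TcMax, since RT1-Db1 had a contrast of −0.998 (SE 0.30, adjusted p = 0.065) and RT1-Ba one of −0.82 (SE 0.31, adjusted p = 0.18). Between 48 h and 24 h no member differed by limma in heart (0% of every tested ID called, 6 members at unadjusted p under 0.05), liver (0.0137%, 0 members), kidney (0%, 0 members) or lung (0%, 2 members). Psmb10 and RT1-N3 differed at both recovery times in liver and kidney, with their differences at TcMax the lower ones. The 24 h and 48 h contrasts of an organ share its TcMax rats.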

How the data were processed

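RNA of 4 organs was hybridised to Affymetrix Rat Gene 1.1 ST arrays. The authors summarised probes to transcript IDs organ by organ with the iterPLIER procedure (Affymetrix Expression Console 1.1 per the submitters' processing notes, annotation na32 on rn4), and the deposited intensity values are on a linear scale. Because organs were normalized apart, levels were not compared between them. As the authors' methods add 16 before a log2 transformation and drop the 50% of IDs with the lower SD in an organ, the same was done here. Gene names came from the platform annotation, and IDs with several symbols were left out of the members.

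Heated minus control at each time was fitted with limma 3.58.1 (R 4.3.3), with the 6 groups of an organ in 1 fit and Benjamini-Hochberg adjustment over 14607 IDs. Organs were compared through within-rat differences. The tests were tried on simulated data. The members and gene lists were chosen with earlier results of these data known. Values were given in full for the 3 largest called differences per comparison in each direction, calls of at least 2-fold and a fixed set of class I, class II and supply genes, and other genes came from fixed lists. Promoters were read from RefSeq (GRCr8), and plots were drawn with matplotlib 3.10.9. Alternatives were another offset, quantile normalization, other filters, unmoderated variances, blocks for replicate number and rat tag prefix, and leaving out 1 array. The number of arrays per group limits the precision.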

Additional observations from a re-analysis of the deposited data

Results flagged for a closer look

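Single arrays stood apart in 4 of 98 groups of 4 to 10 samples checked, those of the members past the test and of class II IDs with an unadjusted p under 0.05, where chance marks about 1 group in 20. The gap to the nearest sample, as a share of the group's range, was 0.712 for RT1-DMa (691) and 0.677 for RT1-DMb (738) in heated lung 6 at TcMax, both high. It was 0.660 for RT1-Db1 (288) in control kidney 6 at 24 h, high, and 0.856 for RT1-Db1 (364) in heated lung 4 at 48 h, low.

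Several heat differences at TcMax differed from those in recovery by limma's test of the difference itself, given here as recovery minus TcMax. In heart at 48 h these were RT1-N3 (0.79) and RT1-CE3 (−0.97). In liver at 24 h they were Psmb10 (1.05), RT1-N3 (0.79), RT1-M3-1 (0.74), RT1-DMb (0.71), Nlrc5 (0.55) and RT1-CE7 (−0.86). At 48 h in liver they were RT1-DMb (0.88), RT1-N3 (0.81), Psmb10 (0.65) and RT1-CE7 (−0.83). In kidney they were Psmb10 (0.90), RT1-M3-1 (0.88), RT1-N3 (0.80) and RT1-S3 (0.74) at 24 h, and Psmb10 (0.77) and RT1-N3 (0.73) at 48 h. In lung at 24 h they were RT1-Ha (0.71), RT1-DMb (0.71), Tap2 (0.64), Psmb10 (0.59), RT1-M3-1 (0.56) and RT1-CE7 (−0.68). At 48 h in lung they were Psmb10 (0.87), RT1-M3-1 (0.62), RT1-S3 (0.58), RT1-CE13 (0.58), Psmb8 (0.52), Psmb9 (0.51) and RT1-CE7 (−0.50).

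RT1-DMa differed between organs at TcMax, by −0.79 for liver minus kidney and by 0.92 for kidney minus lung.

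Outside the members, 1 ID that carries the symbols of several class Ib genes had differences at TcMax of −0.94 in heart (adjusted p = 0.00019 by limma), −0.86 in liver (adjusted p = 5.3e-07) and −0.93 in lung (adjusted p = 4.1e-06). Another, with the symbols of several RT1-CE genes, had a difference of 0.48 in lung at TcMax (adjusted p = 0.0057). Which of the genes gave these signals was not tested.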

How the results depend on the processing

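Of the 32 calls, 26 passed under every change of scale, normalization, filter, variance, samples in the fit or block that left their ID tested, and 24 of them also without any 1 array that did so, the 2-fold minimum apart. With log2(intensity + 1) the SD filter left 17 of the 32 IDs tested, of which 14 passed, and with the 50% of higher mean it left 25, all of which passed. Under these changes and with single arrays left out, each of the 32 calls kept its sign wherever its ID was tested. That holds for the calls and not for class medians, since the class II median in liver at TcMax changed sign within a rat tag prefix. A minimum of 2-fold left 0 calls at TcMax in each organ. With log2(intensity + 1) the calls were 0 in heart at TcMax and at 24 h and 6 in lung at TcMax, all falls. Testing all IDs gave 4 calls in heart and 11 in liver at TcMax, and testing the 50% with the higher mean gave 6 and 11. In heart at TcMax fitting only the groups compared gave 0 calls, and quantile normalization or unmoderated variances gave 2. In heart at 24 h unmoderated variances, the replicate block, the prefix block or the 48 h array labelled heated 4 each gave 0, and that array gave 3 at 48 h. Differences between times were counted under alternatives chosen after seeing the data. With log2(intensity + 1) the counts were 1 in lung, 2 in kidney and 3 in liver at 24 h, and 0 in lung and kidney and 1 in heart at 48 h. In kidney at 48 h all IDs gave 0 and quantile normalization 1. Replicate numbers did not pair the rats: deviations of same-numbered rats correlated above 0.1 in 28 of 68 pairs and in every pair of 0 of 12 comparisons, and the replicate block gave 18 calls in lung at TcMax.

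Within rat tag prefixes the class II medians that moved were −0.32 in heart at TcMax (12), 0.18 (09) and −1.09 (12) in liver at TcMax, −0.40 (11) and −0.46 (12) in liver at 24 h, −0.23 in kidney at TcMax (12), −0.62 in kidney at 24 h (11) and −0.34 in lung at 48 h (11). The class I medians were 0.058 in heart at 48 h (11), −0.17 in liver at TcMax (11), −0.12 (11) and 0.075 (12) in liver at 24 h, −0.042 in kidney at TcMax (12), 0.046 in lung at TcMax (09), and 0.12 (11) and −0.18 (12) in lung at 24 h. At 24 h prefix 11 held a lone heated and a lone control rat in each organ, and prefix 12 a lone control rat. In heart at TcMax prefix 12 held a lone heated rat. The causes were not tested.

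Leaving out 1 array gave 0 to 4 calls in heart at TcMax, 0 to 4 at 24 h and 0 to 2 at 48 h, and at TcMax 12 to 18 in lung (fewest without heated array 3), 4 to 6 in kidney and 6 to 9 in liver, with 0 in every other comparison.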
